A study of Mus musculus with 9 samples.

Results

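The data described here are the expression profiles of 3 diploid clones of p53-null cells from mouse embryos, chosen by the sample titles out of 9 clones in the series. Each clone was measured on 1 single-colour Agilent array. The diploid clones carried, per the labels, the genotype p53-/- and no treatment. The other 6 clones were 3 triploid and 3 tetraploid clones of the same genotype, so that every clone in the series lacks p53 and there is no p53-proficient group. All clones were grown in MEM with 10% fetal bovine serum, and total RNA was labelled with the dye Cy3. The free-text descriptions of clones other than diploid clone 1 print other numbers after the letter p, and the genotype field was followed here. The sample name of diploid clone 3 extends that of clone 1, while the name of clone 2 is separate. Nothing states whether the clones came from separate embryos or cultures. P-values therefore measure only the spread between these samples.

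p53 halts the cell cycle or starts cell death when DNA is damaged, through target genes such as the cell cycle inhibitor Cdkn1a, and cells without it tolerate abnormal chromosome sets. Cells taken into culture from midgestation mouse embryos are mostly connective tissue cells, which make collagen-rich matrix and keep a memory of their place in the body in the HOX genes and other homeobox genes. The HOX genes lie in clusters, and their order along a cluster follows the head-to-tail and trunk-to-limb-tip order of their use in the embryo.

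A level is given throughout as log2 of the background-subtracted signal minus the 75th percentile of the array, so that 0 is that percentile and negative levels lie under it. A probe counted as detected where the scanner software called its spot well above background. A named gene was called bright where a probe was detected on all 3 diploid arrays with a mean level of at least 0, dim where such a probe lay under 0, and dark where none of its probes was detected on any of the 3 arrays. The remaining genes were detected in part, that is in 1 or 2 clones or at different probes in different clones. Probes bind their targets with different strength, so that these classes are broad bands of signal and not molecule numbers. In bulk RNA, moreover, fewer cells with a transcript and less transcript per cell cannot be told apart.

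Of 19997 named genes on the array, 11942 (59.7%) were detected in all 3 diploid clones, 8187 of them bright and 3755 dim. Another 1711 were detected in part and 6344 were dark. Levels of detected genes spanned 14.3 log2 units, from -3.83 to 10.46, and dark genes had a median level of -5.95. The genes next to the line between bright and dim lay at 0.0018 and -0.0013. Spots well above background made up 48.0%, 48.0% and 50.4% of all spots in diploid clones 1 to 3, against 44.8% to 50.9% in the other 6 clones. The means were 48.8 ± 1.39% in diploid clones (SD, n = 3) and 48.0 ± 2.47% in the other clones (SD, n = 6), a difference that did not pass an exact two-sided permutation test (p = 0.595). Diploid clone 1 was the sole array on its slide, while the other 8 arrays shared the other slide, so that slide and clone cannot be told apart for clone 1.

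Trp53 itself, the gene that encodes p53, lay at -4.17, -3.35 and -6.11 in diploid clones 1 to 3 and was well above background in clone 2 alone. The labels do not say which part of the gene was deleted, so the probe cannot check the genotype. The Y-linked RNA helicase Ddx3y had levels of 1.11, 0.43 and 1.58, and the Y-linked translation factor Eif2s3y had 2.05, 1.68 and 3.33. Both were thus bright in all 3 diploid clones. Xist, the RNA that coats an inactive X chromosome, lay at -1.22, -0.23 and -6.49 and was detected in clones 1 and 2 but not in clone 3. The X-linked partners Ddx3x, Eif2s3x and Kdm5c were bright, Kdm6a was dim, Uty was detected in clone 3 alone, and Kdm5d was dark.

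The diploid clones carried the signal of fibroblasts and mesenchyme, the loose connective tissue of the embryo. Of 31 markers of such cells, 25 were bright, 3 dim, 2 detected in part and 1 dark, and the list had a median level of 3.24, against -1.44 over all named genes. The calcium-binding protein S100a4 had levels of 9.37, 10.15 and 10.62 in clones 1 to 3. Sparc, a matrix glycoprotein, had 9.55, 9.76 and 9.41, and the intermediate filament gene Vim had 8.68, 8.38 and 8.87. Every clone was far above the 75th percentile for these genes, and S100a4 differed by more than 1 log2 unit between clones. The collagen gene Col1a2 had levels of 8.82, 8.78 and 7.78.

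Transcription factors that mark mesenchyme were bright as well. The limb mesenchyme factor Prrx1 lay at 4.46, 4.07 and 4.29, the repressor of epithelial genes Snai2 at 3.44, 3.64 and 4.06, and Twist2 at 3.08, 3.86 and 2.78. The platelet-derived growth factor receptors Pdgfra (0.20, 1.36 and 0.16) and Pdgfrb (1.86, 2.76 and 0.94) lay nearer the 75th percentile. Several surface and matrix genes differed widely between clones. Thy1, a surface protein of fibroblasts, had 6.21, 7.42 and 2.34, the matrix gene Postn 1.78, 3.94 and -0.59, and the small proteoglycan Dcn 1.16, 3.21 and -1.92. Each was lowest in clone 3. The factor Tcf21 was the dark member, and Lum and Meox1 were detected in part.

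Genes of the contractile apparatus of smooth muscle and myofibroblasts were bright in 9 of 13 cases, with 4 detected in part and a median level of 5.38. The actin-binding protein Tagln had levels of 9.59, 10.00 and 10.29, the smooth muscle actin Acta2 9.18, 9.39 and 9.46, and the myosin light chain Myl9 8.57, 8.80 and 9.29. Tpm2, a tropomyosin, lay at 7.12, 7.12 and 7.15. Levels of these members moved little between clones, but the median of the list was 5.48, 6.48 and 3.76 in clones 1 to 3. The members detected in part were the master regulator Myocd (-2.44, -2.77 and -5.18), the heavy chain Myh11 (-3.13, -3.10 and -6.23), Synpo2 and Lmod1. Other smooth muscle genes, Cnn1, Smtn and Actg2 among them, were bright. Desmin (Des), of muscle in general, was dark.

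**Figure D1:**
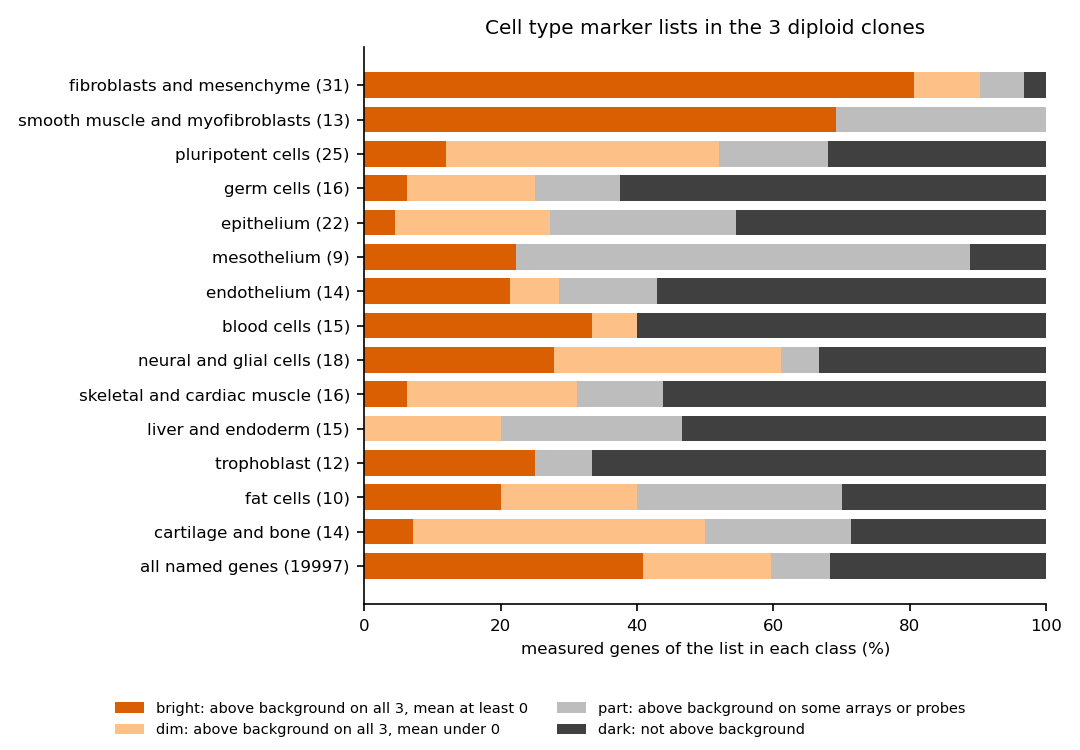
Share of the measured genes of 14 marker lists, and of all 19997 named genes, that were bright, dim, detected in part or dark in the 3 diploid clones (x axis in percent, number of genes measured in brackets). Fibroblast and smooth muscle lists were mostly bright, with 25 of 31 and 9 of 13 genes, while germ cell, trophoblast, blood, endothelial and muscle lists were mostly dark.

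Markers of pluripotent cells were split, with 8 of 25 dark (32%), close to the 31.7% of all named genes. The 3 bright ones of 25 were the Kruppel-like factors Klf2 (3.05, 3.21 and 3.74), Klf4 (1.77, 2.22 and 1.61) and Klf5 (1.58, 0.69 and -0.08), which many other cell types also use. The factor Pou5f1, which defines pluripotent cells, lay at -4.87, -5.73 and -5.04 and was dark, as were Zfp42, Dppa3, Esrrb, Fgf4, Prdm14, Tfcp2l1 and Tcl1. Another 10 were dim, among them Nanog (-0.95, -1.20 and -1.46), Lin28a (-0.91, -0.86 and -0.88) and Sall4 (-0.53, -0.26 and -0.49), and Sox2 (-3.02, -4.66 and -1.25) was detected in clones 1 and 3. The list's median was -2.77. Of 16 germ cell genes, 10 were dark, and Nanos3 (0.66, 0.66 and 0.21) was the bright one.

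Of 22 epithelial markers, 1 was bright, 5 dim, 6 detected in part and 10 dark (45.5%, against 31.7% of all named genes), with a median level of -4.60. Cdh1, the cadherin of epithelial junctions, lay at -5.99, -5.72 and -6.38 and Epcam at -5.89, -5.76 and -5.58, both dark in every diploid clone. Krt19, a keratin of simple epithelia, was the bright member, with levels of 4.69, 3.26 and 4.80. Its partners behaved otherwise: Krt7 (0.92, -0.83 and -0.28) and Krt18 (0.75, 0.61 and -1.70) were dim, and Krt8 was detected in clone 1 alone. Among 9 mesothelial markers, the surface protein Msln (3.73, 1.25 and 1.62) and Tbx18 (0.73, 0.31 and 0.25) were bright. Wt1 (-1.53, -1.73 and -6.46) and Upk1b (-1.03, -2.52 and -6.33) were detected in clones 1 and 2, as was Aldh1a2, while Upk3b, Lrrn4 and Bnc1 were detected in clone 1 alone and Tcf21 was dark. In all, 8, 5 and 2 of the 9 mesothelial markers were detected in clones 1, 2 and 3. Detection in clones 1 and 2 without clone 3 held for 3 of the 9, against 1.29% of all named genes.

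**Figure D2:**
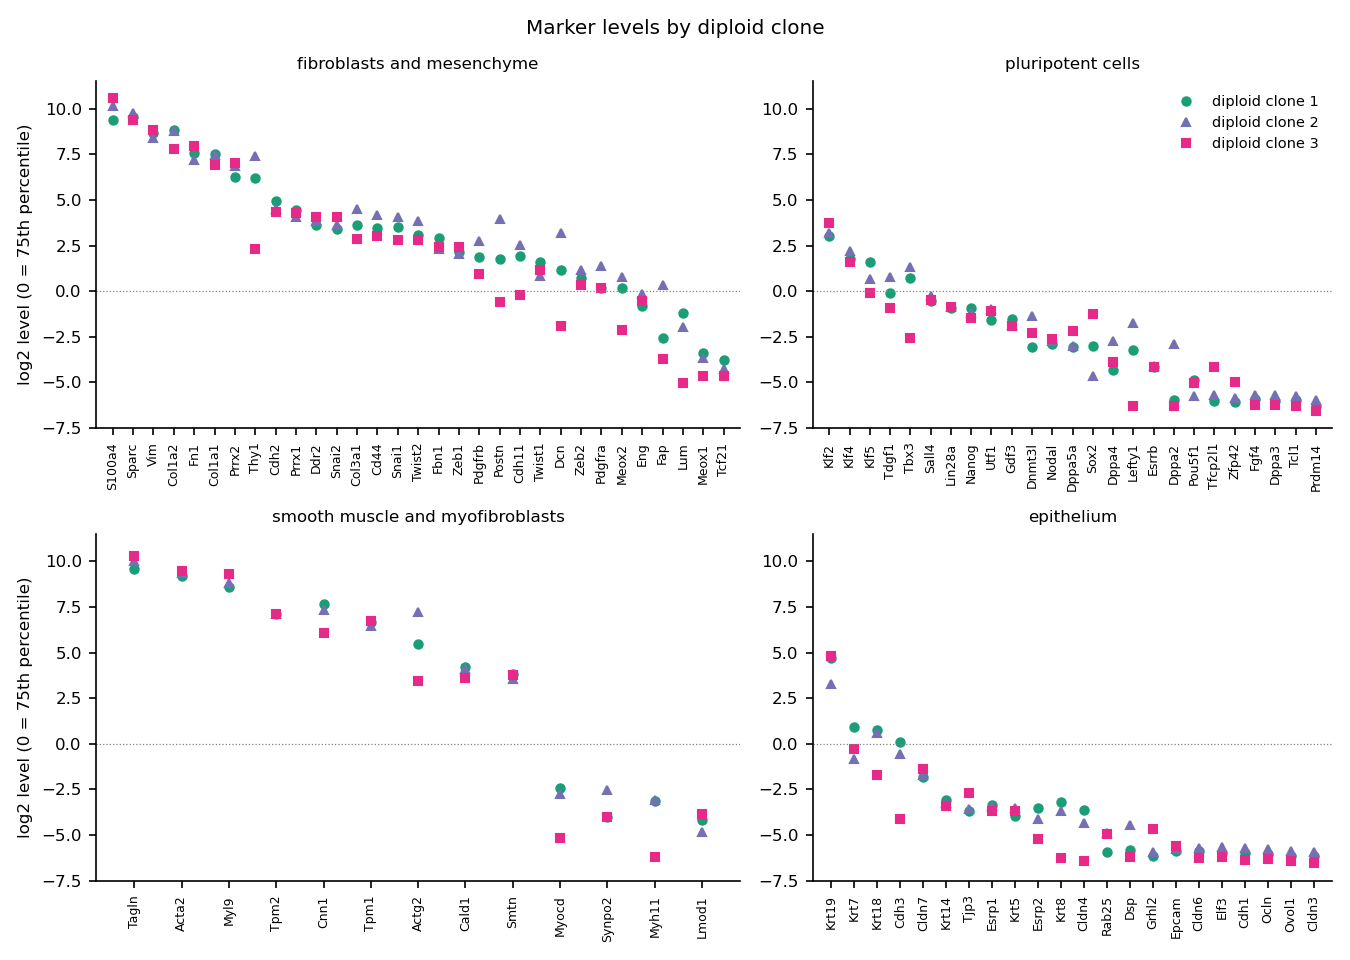
Log2 level of each marker (y axis, 0 is the 75th percentile of the array) in diploid clones 1, 2 and 3 (circles, triangles and squares) for 4 marker lists, sorted by mean level. Fibroblast markers ran from 10.05 for S100a4 down to -4.24 for the dark Tcf21, while most epithelial markers lay under -3.

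Lists of more distant cell types were mostly dark, with a few single genes bright. Blood cell markers had 9 of 15 dark, including the leukocyte surface phosphatase Ptprc (-4.58, -4.40 and -5.01) and the myeloid factor Spi1 (-4.52, -5.52 and -6.43). Itgam (4.19, 4.59 and 3.76), Csf1r (3.02, 3.36 and 3.16), Cd34 (1.63, 2.33 and 2.52) and Cd3e (1.39, 1.97 and 1.37) were bright without these companions, as was Runx1. Whether such probes report the named transcript was not tested. Itgam had 2 of 3 probes detected in all clones, Csf1r 2 of 3 and Cd34 1 of 2.

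Endothelial markers had 8 of 14 dark, including Tek, Tie1 and Sox17, with the vascular growth factor receptor Kdr (4.53, 4.80 and 4.40) and the secreted Egfl7 (2.95, 2.75 and 2.75) bright. Trophoblast markers had 8 of 12 dark, namely Cdx2, Elf5, Tfap2c, Plac1, Ascl2, Ctsj, Tpbpa and Hand1, and Eomes (-2.78, -4.03 and -2.71) was detected in clones 1 and 3. The placental factor Gcm1 (4.41, 4.64 and 4.85), Psg23 (0.65, 1.49 and 1.42) and the placental lactogen Prl3d1 (-0.02, 0.26 and 0.86) were bright. Liver and endoderm markers had 0 of 15 bright, with albumin (Alb) and Hnf4a dark and Gata6 just under the line (-0.16, -0.30 and 0.09) and the fetal albumin Afp (-2.93, -1.51 and -1.70) dim.

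Neural genes were mixed, with 5 bright, 6 dim, 1 detected in part and 6 dark of 18. The synaptic genes Snap25 (3.80, 4.22 and 3.45) and Syp (1.84, 1.76 and 1.65), the microtubule regulator Stmn2 (3.16, 1.91 and 2.37) and the intermediate filament Nes (2.86, 3.24 and 1.12) were bright, whereas the neural fate factors Pax6, Olig2 and Neurog2 were dark. Of 16 skeletal and cardiac muscle genes, 9 were dark, including Myod1, Myf5 and Myog, and the actin gene Acta1 (4.46, 4.20 and 4.37) was bright.

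Of 10 fat cell genes, Fabp4, which carries fatty acids (4.53, 3.24 and 6.65), and Pparg, the master factor of fat cells (1.54, 1.48 and 3.02), were bright, both highest in clone 3. Cebpa (-2.61, -0.66 and -3.05) and Cfd (-3.77, -3.38 and -3.14) were dim. The lipase gene Lpl (-0.10, 0.91 and -4.70) was detected in clones 1 and 2, Cidec and Adipoq in clone 2 alone, and Lep, Plin1 and Retn were dark. Spp1, a matrix protein of bone (5.55, 3.76 and 5.95), was the bright gene of 14 cartilage and bone markers.

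Genes of dividing cells were bright almost without exception: 32 of 35 were bright, 1 dim, 1 detected in part and 1 dark, with a median level of 4.30. Birc5, which guides chromosome separation, had levels of 7.31, 7.27 and 7.73, the replication clamp Pcna 6.51, 6.67 and 7.07, and the ribonucleotide reductase subunit Rrm2 6.29, 6.19 and 6.25. Mcm6, of the replicative helicase, lay at 6.38, 5.70 and 5.93. The exceptions were the thymidylate synthase Tyms (dim), the kinase Aurkb, detected in clone 1 alone, and the cyclin Ccne2 (dark). Each of these 3 was measured by 1 probe.

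The brakes of the cell cycle were bright in part. Cdkn2a, the locus of p16 and of p19Arf, which holds back the p53 inhibitor Mdm2, lay at 6.66, 6.55 and 7.75. Its neighbours in function Cdkn2b (3.64, 3.44 and 3.77), Cdkn2d (3.79, 4.11 and 4.50) and Cdkn1b (3.46, 3.59 and 3.57) were bright too, as were Cdkn2c and Rbl1. The retinoblastoma gene Rb1 (-0.32, -0.78 and -0.91) and its relative Rbl2 (-2.03, -2.32 and -2.07) were dim. Cdkn1c, an imprinted inhibitor, stood at 1.79 and 2.35 in clones 1 and 2 and at -4.84 in clone 3, where it was not well above background.

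Most genes of the p53 network gave signal: of 29 measured, 18 were bright, 7 dim and 4 detected in part, and none was dark. The bright share was 62.1%, against 40.9% of all named genes, of which 31.7% were dark. The nuclease Aen had levels of 5.49, 5.45 and 5.53, Phlda3 4.83, 5.37 and 5.44, the cell death gene Bax 4.84, 4.94 and 5.54, and the p53 inhibitor Mdm2 3.98, 3.90 and 4.13. Cdkn1a, the inhibitor that p53 induces, was dim at -0.78, -0.46 and -1.003. Mdm4 (-1.29, -1.25 and -2.37) and the damage sensor Ddb2 (-1.65, -1.02 and -0.95) were dim, and Eda2r was detected in clone 1 alone. The relatives of p53 were Trp63, bright at 3.32, 2.53 and 2.16 at 1 of its 2 probes, and Trp73, dim at -2.17, -1.87 and -1.73. With no p53-proficient clone to set beside them, these levels say nothing of what p53 would add.

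Among genes tied to sustained growth, the chromatin proteins Hmga1 (8.70, 8.47 and 8.14) and Hmga2 (5.82, 5.29 and 5.40), which embryonic cells and tumours share, were bright. So were Hras (4.67, 5.03 and 5.64), Bmi1 (3.16, 3.12 and 3.90), which represses Cdkn2a, and Myc (2.26, 1.99 and 2.34). The telomerase protein Tert was dim at -3.03, -2.61 and -2.73. Lin28b was detected in clone 2 alone and Mycn in clones 1 and 2. Growth factor signalling had 12 of 22 genes bright, led by the receptor Axl (5.30, 5.26 and 5.04), the ligand Pdgfa (4.40, 4.35 and 4.18), the receptor Fgfr1 (3.88, 3.91 and 3.95) and Fgf7 (2.95, 4.23 and 4.10), and Kit and Erbb3 were dark.

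Matricellular genes and targets of YAP, a transcriptional partner that responds to stretch and cell spreading, were bright in 14 of 16 cases and dim in 2, with a median level of 4.14. Sparc and Birc5, given above, are also on this list. Ccn2 lay at 7.71, 7.49 and 8.22 and Thbs1 at 6.91, 5.96 and 7.22. Of 35 chemokines, 11 were bright, 4 dim, 3 detected in part and 17 dark (48.6%), and the brightest were Ccl7 at 4.90, 6.57 and 6.41, Ccl2 at 5.12, 6.52 and 5.61 and Cxcl12 at 4.89, 5.77 and 3.32. Cxcl5 had 4.41, 2.68 and 5.08. Of 22 inflammatory and interferon genes, which share some chemokines with that family, 7 were bright, 5 dim, 1 detected in part and 9 dark (40.9%), and the dark ones included Il1b, Tnf, Ifnb1 and Ifit1.

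Of 29 imprinted genes, which are expressed from 1 parental copy, 15 were bright, 4 dim, 5 detected in part and 5 dark. Gnas lay at 6.84, 6.82 and 6.81, Meg3 at 3.43, 5.32 and 4.76, Plagl1 at 4.18, 3.83 and 3.27 and Impact at 3.48, 3.51 and 3.82. A group of 4 imprinted genes was detected in clones 1 and 2 and not in clone 3: Cdkn1c as above, the growth factor Igf2 (1.21, 0.46 and -4.52), Peg3 (-1.32, -0.71 and -6.38) and Nnat. Over all named genes, 258 of 19997 (1.29%) had that pattern. Dlk1 (3.13, 4.32 and 0.97) stayed bright in all 3.

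The brightest probes of the diploid clones were those of the protein synthesis machinery. Of the 25 brightest named genes, 17 encode proteins of the cytosolic ribosome, as did 49 of the top 100. The list was led by S100a6, a calcium-binding protein, at 10.06, 10.51 and 10.81, and by the ribosomal proteins Rpl35 (10.11, 10.46 and 10.70) and Rpl9 (10.04, 10.47 and 10.71). In each of these, clone 1 was lowest and clone 3 highest. The signal at the subtracted percentile ran the other way, at 383.8, 295.9 and 249.5 in clones 1 to 3. Centring alone gives that order where the signals before it are equal, so the order is not read as a difference between clones. Its source was not tested. Further ribosomal genes of the 25 included Fau, Rps10, Rps27a, Rps20, Rpl11, Rplp0, Rps14, Rpl12, Rpl41, Rpl10, Rps16, Rpl37a, Rps12 and Rpl34. Outside the ribosome the 25 held the histone H2ac12, the cytoskeletal actin Actb (10.01, 10.28 and 10.28), the growth-linked Tpt1, the prolyl isomerase Ppia and the ribosome scaffold Rack1. Exosc2 (9.96, 10.26 and 10.37), of the RNA exosome, and the clotting factor F10 (9.97, 10.18 and 10.25) were among the 25 too, and for F10 1 of its 2 probes was detected in all clones.

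Large housekeeping families were bright nearly throughout. Of 85 cytosolic ribosomal protein genes, 82 were bright, with a median level of 9.41. The other 3 were copies known for use in testis or muscle: Rpl3l (-4.22, -5.75 and -6.30) and Rpl10l (-6.15, -5.92 and -5.25) were dark, while Rpl39l stood at 2.11, 5.10 and -6.20 and was detected in clones 1 and 2. Of 90 genes of the respiratory chain and ATP synthase 84 were bright, of 40 proteasome subunits 36, of 68 translation factors 60 and of 21 glycolysis enzymes 18. The brightest of the respiratory chain were Cox6a1 (9.09, 9.36 and 9.59), Cox4i1, Atp5g3 and Uqcrq, of the proteasome Psmb5 (8.38, 8.72 and 8.80), Psma3, Psmc3 and Psma7, and of translation Eef1b2 (8.50, 8.94 and 8.96), Eef1a1, Eif3h and Eef1d. Glycolysis was led by Gapdh (9.73, 9.62 and 9.43), Ldha (9.49, 9.48 and 9.57), Aldoa (9.19, 8.81 and 8.98) and Eno1 (8.87, 8.74 and 8.32), and 9 of its genes stood among the 500 brightest. Histones were bright in 31 of 49 cases, led by H2ac12, H2ac10, H2ac11 and H2ac15. These histone genes are near-identical in sequence, as are many ribosomal genes and their pseudogenes, so that their probes may share targets.

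Tubulins were bright in 16 of 24 cases, led by Tuba1b (9.90, 10.02 and 10.35), Tuba1c, Tuba1a and Tubb5. Among matrix families, 15 of 42 collagens were bright, after Col1a2 and Col1a1 led by the microfibrillar Col6a1 (4.55, 4.98 and 4.46) and Col16a1 (4.23, 4.58 and 5.06). Col2a1, the collagen of cartilage, was detected in clones 1 and 2 (2.26 and 2.20) and not in clone 3 (-4.89). Of 45 matrix proteases and their inhibitors 21 were dark and 10 bright, and the bright ones were led by inhibitors, Timp2 (7.91, 7.64 and 7.52), Timp1 (7.28, 7.50 and 7.84) and Timp3 (5.25, 4.93 and 5.18). Zinc finger proteins, many of them transcription factors, had 299 of 359 genes detected, 158 bright and 141 dim. They were led by Zfp628 (9.64, 9.99 and 10.12), Zfp408, Zfp658 and Zfp771.

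Sensory receptors and defence peptides were mostly dark. Of 1065 olfactory receptors 936 were dark, 83 detected in part, 41 dim and 5 bright, the last led by Olfr544 (3.74, 4.18 and 3.81) and Olfr1229 (1.74, 1.85 and 1.93), then Olfr1466 (1.66, 1.03 and 1.99) and Olfr373 (1.49, 1.48 and 1.27). Of 255 vomeronasal receptors 231 were dark, of 43 beta-defensins 39, of 38 taste receptors 32 and of 27 kallikreins 19. Those shares stand against 31.7% dark over all named genes. Potassium channels (65 of 95 dark), claudins (20 of 29), interleukins (20 of 30), GABA and glutamate receptors (26 of 43), cytochrome P450 enzymes (58 of 98) and keratins (31 of 53) were mostly dark as well. Among their bright members were Cldn12 (3.55, 4.09 and 3.72), the potassium channel Kcna4 (3.61, 2.86 and 3.43), the GABA receptor subunit Gabrr2 (3.15, 3.46 and 3.48), the interleukin Il11 (-0.22, 1.09 and -0.69) and the steroid hydroxylase Cyp17a1 (5.25, 4.59 and 4.16).

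**Figure D3:**
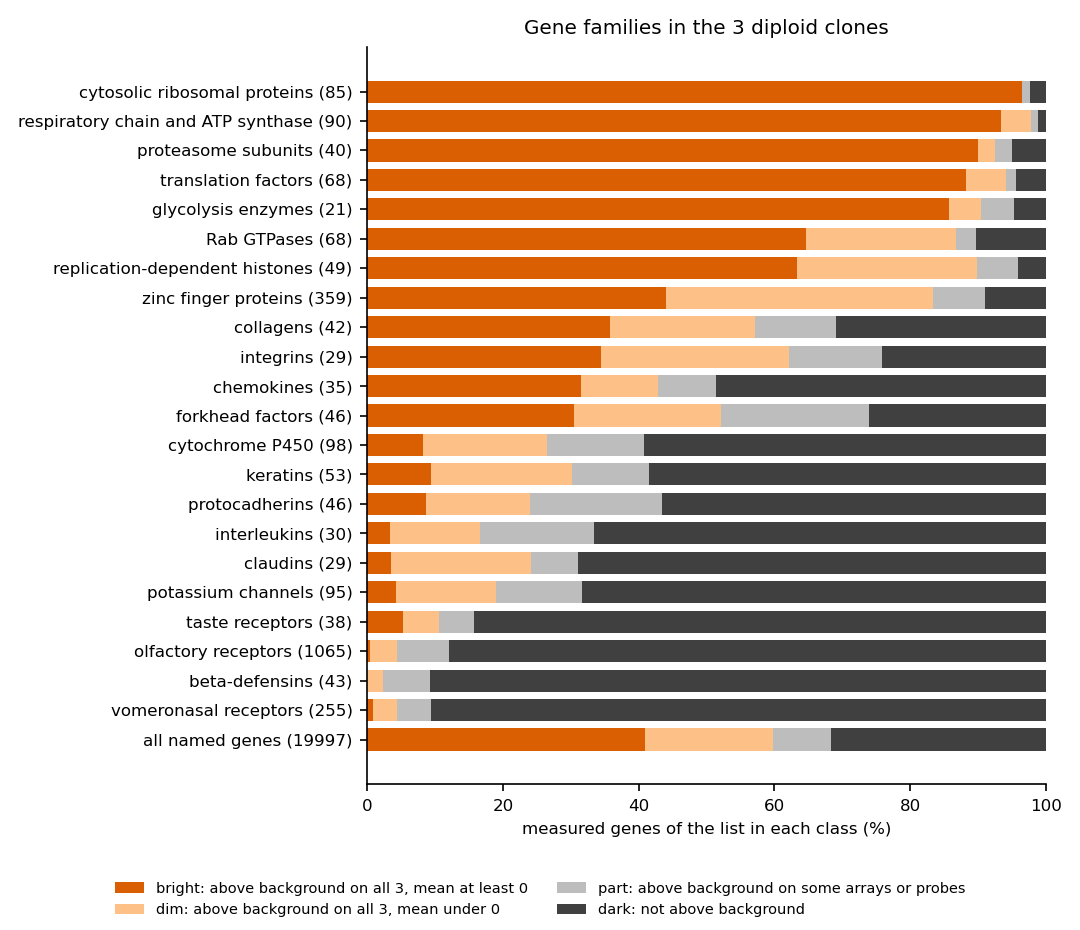
Share of the measured genes of 22 families, and of all 19997 named genes, that were bright, dim, detected in part or dark in the 3 diploid clones (x axis in percent, number of genes measured in brackets). Ribosomal, respiratory and proteasome genes stood at one end, with 82 of 85, 84 of 90 and 36 of 40 bright, and chemosensory receptors and beta-defensins at the other.

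The diploid clones differed in which HOX clusters they used. In the Hoxb cluster 8, 8 and 2 of 10 genes were detected in clones 1, 2 and 3, and in the Hoxc cluster 7, 8 and 1 of 9. Most Hoxb and Hoxc genes were thus well above background in clones 1 and 2 and not in clone 3. In the Hoxa cluster 10, 10 and 9 of 10 genes were detected, and in the Hoxd cluster 7 of 9 in each clone.

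Hoxc6, a gene of the thoracic trunk, had levels of 1.41, 3.04 and -5.71, and Hoxc9 had 0.64, 2.18 and -6.22. In the Hoxb cluster, Hoxb2 lay at -0.46, 0.94 and -6.40, Hoxb4 at -0.64, 0.70 and -6.48, Hoxb7 at -0.19, 1.21 and -6.27 and Hoxb9 at -0.01, 0.64 and -6.46. Clone 2 was highest and clone 3 not well above background for each of these 6 genes. The same order held for Hoxb5 (-2.54, -1.22 and -6.63), Hoxb8 (-1.58, -0.62 and -6.48), Hoxc4 (-0.62, 0.62 and -6.62) and Hoxc8 (-3.62, -2.07 and -6.41), and for Hoxc5 and Hoxc10. Detection in clones 1 and 2 without clone 3 occurred in 6 of 10 Hoxb genes and 6 of 9 Hoxc genes, against 1.29% of all named genes. Hoxb6 (0.34, 1.70 and -3.17) and Hoxb3 (-2.16, -1.84 and -2.72) were the Hoxb genes detected in all 3, and Hoxc12 (-2.90, -2.21 and -3.33) the Hoxc gene. Hoxc11 was detected in clone 2 alone, and Hoxb1, Hoxb13 and Hoxc13 were dark.

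At the other end of the body plan, the genes of limb tip and genital region were lowest in clone 2. Hoxd13, which shapes digits and genitalia, had levels of 3.92, 0.78 and 4.44. Hoxd12 had 0.96, -2.30 and 1.22, Hoxd11 0.56, -1.71 and 1.18, Hoxd10 0.28, -1.26 and 1.58 and Hoxa11, of forearm and kidney, 2.77, 1.28 and 2.62. Clones 1 and 3 lay above clone 2 in each of these 5 genes. Hoxa13 (0.55, -2.02 and -1.09) was also lowest in clone 2. Hoxa7 (1.98, 2.11 and 0.91) was positive in every clone, and Hoxd8 (-0.16, 0.06 and 0.27) lay on the line. Hoxa3 (-0.66, 0.48 and -1.75), Hoxa5 (-2.48, -0.87 and -2.92), Hoxa4, Hoxa6, Hoxa9, Hoxd4 and Hoxd9 were dim, Hoxa2 was detected in clones 1 and 2, and Hoxd1 and Hoxd3 were dark.

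**Figure D4:**
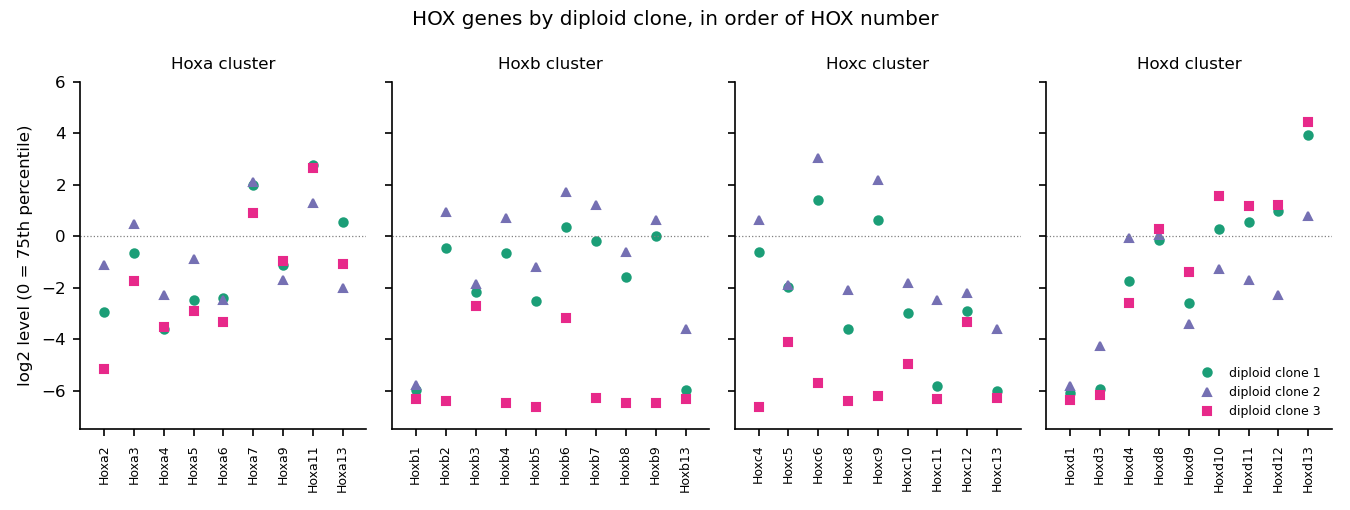
Log2 level (y axis, 0 is the 75th percentile of the array) of HOX genes of each cluster in diploid clones 1, 2 and 3 (circles, triangles and squares), in order of HOX number. Clone 3 sat near the floor for most Hoxb and Hoxc genes, Hoxb3, Hoxb6 and Hoxc12 excepted, and clone 2 was lowest for Hoxd10 to Hoxd13.

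Other factors of position also differed between clones. Tbx4, a factor of the hindlimb, was detected in clones 1 and 3 (0.88 and 1.48) and not in clone 2 (-3.94). Its forelimb counterpart Tbx5 was detected in clones 1 and 2 (0.01 and -2.27) and not in clone 3 (-6.25), where Six2 (1.38, 1.63 and -6.49), Foxd1 (-1.54, -1.61 and -6.35) and Shox2 (-2.78, -1.80 and -6.53) were missing too. Lhx2, which maintains limb outgrowth, had 2.29, -3.07 and 2.78, and its relative Lhx9 1.69, -0.62 and 1.53. Of 30 position factors, 25, 26 and 20 were detected in clones 1, 2 and 3. Detection in clones 1 and 2 without clone 3 held for 4 of the 30, against 1.29% of all named genes. Tbx15 (2.73, 2.31 and 3.23), Osr1 (2.86, 2.22 and 2.94), the hindlimb factor Pitx1 (2.72, 2.21 and 2.20) and Foxc2 (2.15, 2.27 and 2.19) were bright in all 3 clones, and En1 and Tbx2 were dark.

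The other clones gave context for these clusters, without a test of the pattern. Among the 3 diploid clones, 8, 8 and 2 Hoxb genes were detected, against 4, 3 and 3 in the triploid clones and 2 in each tetraploid clone, so that diploid clone 3 had as few as the tetraploid clones. For Hoxc genes the counts were 7, 8 and 1 in diploid clones, against 2, 3 and 1 in triploid and 0, 2 and 1 in tetraploid clones. Hoxb5, Hoxb7, Hoxb8, Hoxb9, Hoxc4, Hoxc6, Hoxc8 and Hoxc9 were detected in 2 diploid clones and in 0 of the other 6. The share of all named genes with that pattern was not counted, so it is not read as particular to these genes. These HOX genes entered no test, since no group had all its arrays above background. Hoxd13 had 3.92, 0.78 and 4.44 in diploid clones, against -6.01, -6.38 and -6.18 in triploid clones and 4.09, 4.00 and 4.38 in tetraploid clones. Clones 1 and 3 lay within or next to the tetraploid range, and the triploid clones were not well above background.

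Among genes detected in all 3 diploid clones, most had similar levels in each. The 1711 genes detected in part, which include most Hoxb and Hoxc genes, are left out of the counts that follow. The median SD between clones of the 11942 detected genes was 0.29 log2 units, and 9647 of them (80.8%) stayed within 1 log2 unit over the 3 clones. Pairwise, 125 genes differed more than 4-fold between clones 1 and 2, 213 between clones 1 and 3 and 399 between clones 2 and 3. Set against the mean of the other 2, clone 1 had 39 genes past 4-fold (0.327%), clone 2 had 199 (1.67%) and clone 3 had 261 (2.19%). With 1 array per clone, clone and array cannot be told apart.

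Among genes detected in all 3 clones, those that varied most included genes of the matrix, signalling and nervous system. Penk, which encodes opioid peptides, had levels of 4.19, -0.91 and 7.60 in clones 1 to 3. The growth factor Ptn had 3.32, 5.65 and -1.50, and the cross-linking enzyme Loxl2 3.48, 4.13 and -2.13. Penk was highest in clone 3, and both others were highest in clone 2 and lowest in clone 3. Others low in clone 3 were the ion pump regulator Fxyd6 (3.42, 4.13 and -2.91) and the prostacyclin synthase Ptgis (1.99, 3.43 and -3.57). Those high in clone 3 included the cytokine Tslp (-0.75, -0.54 and 3.59) and the adhesion gene Pcdh10 (0.58, -3.18 and 2.61), which with Lhx2, Map2 (-0.01, -3.42 and 1.38) and Mapk13 (3.18, 0.19 and 5.34) was lowest in clone 2. Further genes high in clone 3 were 0610040J01Rik and AAdacl4fm3. Il6 (-1.89, 1.98 and -2.70), Ctla2b (0.33, 3.07 and -3.63) and 1700009N14Rik stood out in clone 2. Clone 1 differed through the low prolactin-family genes Prl2c5 (-0.47, 3.21 and 1.82) and Prl2c1 (-0.71, 2.22 and 1.47), with 4933402N22Rik, Speer2 and Gngt2. It stood above the mean of the others in Mogat2 (3.80, 2.42 and -0.44), Arhgap36, Fxyd6, Loxl2 and Lhx2. Clone 1 was not the highest for Fxyd6 and Loxl2, where clone 2 was, or for Lhx2, where clone 3 was.

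Detection in a single clone concerned few genes: 234 named genes were detected in clone 1 alone, 254 in clone 2 alone and 444 in clone 3 alone, of 12759, 12670 and 12902 detected in each. The brightest were Galntl5 (0.04), Tmco5, Zmat4, Ccdc185 and Olfr115 in clone 1. In clone 2 they were Prickle2, of planar cell polarity (0.69), Olfr1197, Mbd3l1, the iron oxidase Heph and Prrxl1. In clone 3 they were Gdpd2 (-0.28), AI507597, Klra2, Clec2h and the G protein Gnal. None of the 15 reached a level of 1.

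The promoters of bright and dark genes differed in base composition. RefSeq windows of 300 bases (250 before the start of the gene to 50 after, build GRCm38.p6) matched 15873 named genes. The 4 windows below stand for a bright fibroblast gene, the first dark pluripotency gene of its list, the brightest ribosomal gene and an olfactory receptor. Rpl35 and Olfr1 were picked after the values were seen, to show the ends of the range. Each reads 5′ to 3′ on the strand of the gene, with every CG pair in capitals, and with the letters TATAA in capitals where they begin 40 to 20 bases before the start.
S100a4 (bright, chr3:90603520-90603819, + strand): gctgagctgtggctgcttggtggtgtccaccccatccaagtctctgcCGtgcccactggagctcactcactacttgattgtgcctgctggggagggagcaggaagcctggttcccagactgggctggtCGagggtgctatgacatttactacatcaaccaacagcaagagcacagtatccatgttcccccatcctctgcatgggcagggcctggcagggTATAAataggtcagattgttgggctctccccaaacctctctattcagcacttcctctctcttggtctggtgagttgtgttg
Pou5f1 (dark, chr17:35505782-35506081, + strand): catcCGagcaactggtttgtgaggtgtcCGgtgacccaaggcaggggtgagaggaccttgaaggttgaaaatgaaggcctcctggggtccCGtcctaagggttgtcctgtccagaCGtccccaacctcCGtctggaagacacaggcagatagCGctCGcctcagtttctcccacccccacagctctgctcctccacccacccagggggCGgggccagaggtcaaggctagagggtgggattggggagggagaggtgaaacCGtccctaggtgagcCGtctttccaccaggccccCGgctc
Rpl35 (bright, chr2:39005082-39005381, - strand): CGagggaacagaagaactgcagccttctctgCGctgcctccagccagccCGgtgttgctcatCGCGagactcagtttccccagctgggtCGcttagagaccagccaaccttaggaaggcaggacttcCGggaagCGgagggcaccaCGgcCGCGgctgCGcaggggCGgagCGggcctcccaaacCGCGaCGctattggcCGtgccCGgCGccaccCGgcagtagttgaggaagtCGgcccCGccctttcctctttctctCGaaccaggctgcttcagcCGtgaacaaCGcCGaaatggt
Olfr1 (dark, chr11:73399446-73399745, - strand): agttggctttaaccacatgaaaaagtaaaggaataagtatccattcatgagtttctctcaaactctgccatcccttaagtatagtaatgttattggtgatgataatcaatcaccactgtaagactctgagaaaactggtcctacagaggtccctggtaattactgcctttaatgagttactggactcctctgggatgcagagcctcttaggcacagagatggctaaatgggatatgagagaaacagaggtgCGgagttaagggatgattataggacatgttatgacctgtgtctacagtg
The S100a4 window held 2 CG pairs and a TATAA in that place, the Pou5f1 window 11 CG pairs, the Rpl35 window 27 and the Olfr1 window 1. A promoter rich in CG pairs was thus found in 1 of the bright genes and not in the other.

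Over all matched genes, the median number of CG pairs was 22 in bright, 17 in dim, 8 in partly detected and 4 in dark genes, and 15 in all 15873. Windows with at least 20 CG pairs made up 58.5% of bright genes (95% Wilson interval 57.3 to 59.7%, n = 6641), 43.9% of dim, 26.7% of partly detected and 13.4% of dark genes (12.4 to 14.3%, n = 4976). The step held without olfactory and vomeronasal receptors, where 16.7% of the other 3973 dark genes had at least 20. The intervals cover counting error alone, and genes are not independent replicates.

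Short motifs were searched on both strands except for the TATAA near the start, which was sought on the strand of the gene. The letters GGGCGG, which overlap a CG pair, were in 67.7% of bright and 24.5% of dark genes, against 49.7% of all windows. TATAAA went the other way, with 6.94% of bright and 21.2% of dark genes (12.6% of all), as did TATAA 40 to 20 bases before the start, with 1.99% and 7.72% (4.45% of all). CCAAT stood in 39.7% of bright and 38.6% of dark genes (38.8% of all).

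Among the lists, the 19 fibroblast markers with a window had a median of 8 CG pairs, and 15.8% had the TATAA near the start, although most of these genes were bright. Among 28 proliferation genes the median was 24, and 78.6% held CCAAT. Ribosomal protein genes had a median of 21 over 63 windows and olfactory receptors 1 over 908. Such motif shares were not particular to bright lists. The liver and endoderm list, with 0 of 15 genes bright, held CCAAT in 77.8% of 9 windows. In the pluripotent list, 20% of 15 windows had the TATAA near the start. A match of letters is a description of the window and not a site of binding.

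Probes without a gene name were counted singly. Of 16175 probes that the array names by a genome interval alone, 23.9% were detected in all 3 diploid clones, of 4108 with an Ensembl transcript 32.3%, and of 6636 with a RefSeq accession not in the table used for names 40.5%. Named long noncoding RNAs were detected in 127 of 372 cases (34.1%), 48 of them bright, against 11735 of 19442 protein-coding genes (60.4%). These shares were not tested against each other, since probe design differs between the classes.

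Diploid clones were compared with the other 6 clones to see where they differ from the rest of the series. Since nothing states how the clones are related, ploidy and clone origin cannot be told apart in this comparison. Over 21800 features (12437 named genes and 9363 unnamed probes), limma called 71 at a Benjamini-Hochberg adjusted p under 0.05 (0.326%), 68 higher (0.312%) and 3 lower (0.0138%) in diploid clones, and 3570 had an unadjusted p under 0.05. Of the 33 named genes called, 30 were higher and 3 lower, and in 27 the diploid values did not overlap those of the other clones, which held for 7.39% of all features. A feature entered the fit where it was well above background on all arrays of any group. Among the higher genes, Dnajb3, Nup62cl, Pcdh20, Ntf3, Nhsl2, Adgrg5, Tnni3k and Mycl entered through the diploid clones alone, where they are high. Their p-values, and the count of higher calls, therefore depend on that filter. Among the lower genes, Saa3 entered through the triploid clones alone, where it is high. Without the filter 18 features were called, 18 higher and 0 lower. The adjusted p-values that follow are from the fit with the filter, over all features, unless stated otherwise.

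Meox2, a homeobox factor of mesenchyme, was the single called gene among 29 tested fibroblast markers. Its levels were 0.18, 0.80 and -2.13 in diploid clones, against -5.92, -6.28 and -6.09 in triploid and -2.87, -3.38 and -2.22 in tetraploid clones. Every diploid value lay above the other 6, clone 3 by a small margin (log2 difference 4.08 ± 0.57 SE, adjusted p = 0.0316). The median difference of the fibroblast list was 0.56, against -0.07 over the 12437 named genes tested. In the 9 tested smooth muscle genes the median was 0.98 with 0 called (limma), among them Tagln (0.98 ± 0.27, adjusted p = 0.141). Of the 33 proliferation genes 0 were called, with a median of -0.38, and likewise 0 of 27 p53 network genes, with a median of 0.03. Over all 21800 features 0.326% were called, so that 0 calls in lists of this size do not set them apart. Among 5 tested trophoblast genes the placental lactogen Prl3d1 was called (1.91 ± 0.29, adjusted p = 0.0434).

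The cytokine-like C1qtnf3 had levels of 1.49, 3.08 and 0.99 in diploid clones, against -1.89, -3.38 and -3.55 in triploid and -3.31, -4.72 and -2.11 in tetraploid clones (5.02 ± 0.66, adjusted p = 0.0265). The fatty acid carrier Fabp3 had 3.61, 3.39 and 3.99, against -0.48, -0.37 and -0.45 in triploid and 1.99, 0.25 and -0.26 in tetraploid clones (3.55 ± 0.43, adjusted p = 0.0166). Both were apart from every other clone. Cracd, a regulator of actin filament ends, had 0.12, -0.32 and -0.15, against -5.93, -6.29 and -6.08 in triploid and -2.31, -2.33 and -2.10 in tetraploid clones (4.06 ± 0.18, adjusted p = 6.2e-05).

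Some called genes were dark in all 6 other clones, so that their change has a lower bound in place of a size. The neurotrophin Ntf3 had -0.56, -2.43 and -3.19 in diploid clones, at least 3.85-fold above the others (adjusted p = 0.0317). For the nucleoporin-like Nup62cl, with -2.17, -2.40 and -0.72, the difference was at least 4.74-fold, with an adjusted p of 0.0153. For the protocadherin Pcdh20, with -1.01, -2.95 and -1.37, it was at least 4.70-fold, with an adjusted p of 0.0107. Each of these 3 genes passed the filter on dim probes through the diploid clones alone, where it is high, so that these p-values depend on the filter. Without it the adjusted p was 0.0721 for Ntf3, which was then not called, 0.0355 for Nup62cl and 0.0254 for Pcdh20. The bounds set the other clones at the lowest signal called well above background, or at the probe's own signal where that was higher.

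The chaperone gene Dnajb3 had -0.33, 0.20 and 0.70 in diploid clones, against at most -2.31 in the others (5.25 ± 0.70, adjusted p = 0.0265). It too passed the filter through the diploid clones alone, and without the filter its adjusted p was 0.0526. Ccdc68 had 2.30, 1.90 and 2.41, against at most 0.87 (4.71 ± 0.46, adjusted p = 0.00686), and the tyrosine kinase Fes -0.00, 1.16 and 1.83, against at most -0.89 (3.61 ± 0.50, adjusted p = 0.0316). Lower in diploid clones without overlap was Tapbp, a chaperone of peptide loading on class I molecules, with 0.45, 0.37 and 0.82, against 2.00, 2.47 and 1.75 in triploid and 2.28, 1.88 and 2.59 in tetraploid clones (-1.62 ± 0.24, adjusted p = 0.0422). The forkhead factor Foxf2 had -0.84, -0.77 and -0.73 in diploid clones, against 0.30 to 1.05 in the others (-1.32 ± 0.20, adjusted p = 0.0430). The third lower gene, the serum amyloid Saa3, was dark in diploid clones and overlapped the tetraploid clones, where it lay at -5.74, -5.47 and -4.73. It entered the fit through the triploid clones alone, where it is high (-1.15, -0.83 and -2.56), so this call depends on the filter as well.

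**Figure D5:**
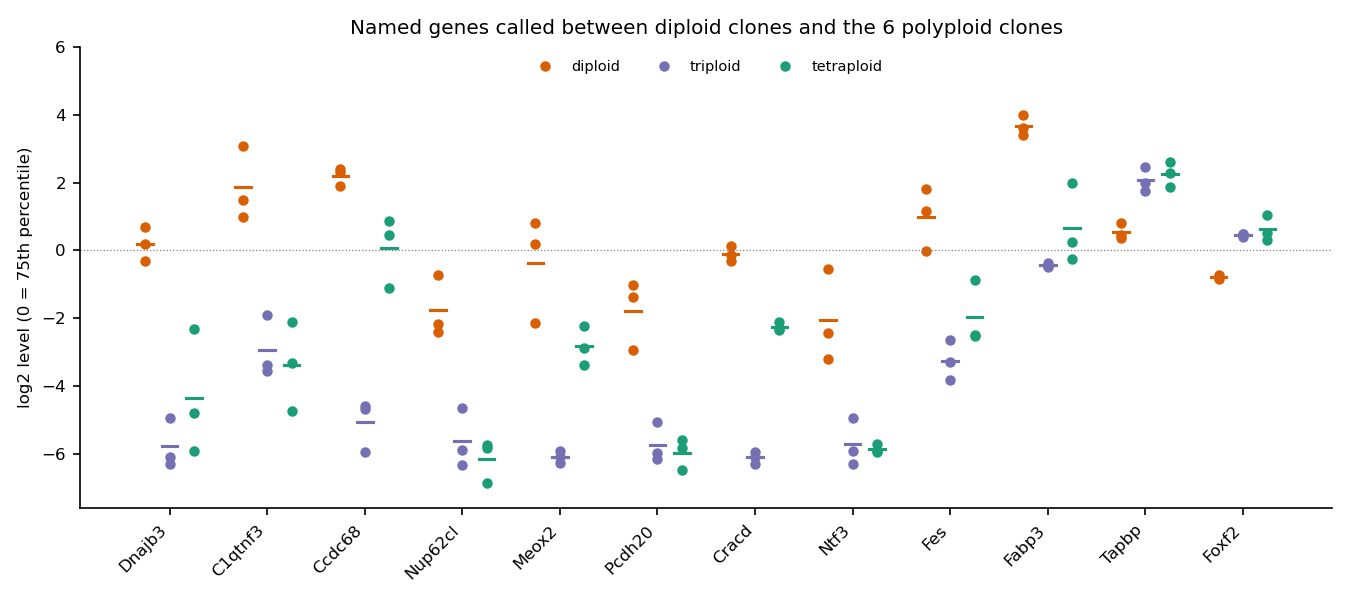
Log2 level (y axis, 0 is the 75th percentile of the array) of the 10 genes with the largest called differences above the other 6 clones, and of the 2 below them, whose values did not overlap, with diploid, triploid and tetraploid clones from left to right (points are clones, bars are means of 3). Diploid values lay above all others in 10 genes and under them in Tapbp and Foxf2. Dnajb3, Nup62cl, Pcdh20 and Ntf3 entered the fit through the diploid clones alone, so their calls depend on the filter on dim probes.

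These calls depended on the filter and on single clones. Without the filter on dim probes 18 features were called, and of the 12 genes plotted C1qtnf3, Meox2, Fes, Tapbp and Foxf2 also lost their call, with adjusted p-values of 0.0523 to 0.131. With the slide as a block, which amounts to leaving out clone 1, 8 features were called, 7 of them among the 71, and of those 12 genes only Cracd passed (adjusted p = 0.00126), the others reaching 0.0642 to 0.0925. Without triploid clone 1 the count was 631, 482 higher and 149 lower. It was 20 without diploid clone 2 and 31 without diploid clone 3, 19 and 31 without triploid clones 2 and 3, and 38 and 44 without tetraploid clones 1 and 2. A gene could also be called through the triploid clones alone: Hoxa11 (3.48 ± 0.34, adjusted p = 0.00686) was dark in the triploid clones, while its diploid levels of 2.77, 1.28 and 2.62 lay under the tetraploid levels of 2.97, 3.78 and 3.60.

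The marker classes that describe the diploid clones were found in the other clones too. Of 31 fibroblast markers 25 were bright in diploid clones, against 23 in triploid and 22 in tetraploid clones, and of 13 smooth muscle genes 9 were bright in each group. Of 25 pluripotency genes 3 were bright in each group, and of 22 epithelial genes 10 were dark in diploid clones, against 11 in triploid and 12 in tetraploid clones. Over all named genes the diploid clones had 8187 bright and 6344 dark, against 8044 and 6192 in triploid and 8234 and 6347 in tetraploid clones. These counts were not tested.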

How the data were processed

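Per the file headers, the 9 arrays were scanned and read with Agilent Feature Extraction 10.7.3.1, on a design annotated on mm9. The deposited processed signals are intensities after background subtraction, not yet normalized across arrays. A log2 table that the authors deposited as well equals the scanner values minus a constant per array and minus diploid clone 1 (within 0.05 at 99.7752% or more of probes). Its columns were used as an alternative.

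Control spots and spots with outlier flags were left out, log2 signals were averaged over the spots of a probe, and the 75th percentile of the array was subtracted. Of 55681 probes, 83 were dropped. RefSeq accessions were matched to symbols in a table of GRCm38.p6, for 26373 probes, while 29225 stayed unnamed. The brightest probe stood for a gene, and 1206 of 3941 detected genes with several probes had probes that disagreed on detection in all 3 clones. No spot was saturated, and precision is limited by the number of clones.

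Diploid clones were compared with the mean of triploid and tetraploid clones with limma 3.58.1 (R 4.3.3, prior df 3.19) over features well above background on all arrays of a group, and tested on simulated data. Tables were made in Python 3.11.15. The rule named the 25 brightest genes, the 4 brightest members and the dark defining markers of each list, every member of lists of 12 or fewer, the 10 largest called differences in each direction without overlap, 5 genes per clone and direction, Trp53 and sex-linked genes. A few others, such as further members of a list, were named after their values were seen. Members and lists were chosen with earlier results of these data known. Alternatives covered scaling, background correction, probe choice, filters, slide, replicate number and leaving out clones. A few members of the lists are not reported here.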

Additional observations from a re-analysis of the deposited data

How the results depend on the processing

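The number of genes detected in all diploid clones and the median of the fibroblast list relative to all named genes (4.67) changed little under the alternatives run: the first moved by less than 1.5 times and the second lay between 4.15 and 4.85. The counts were 12704 genes with detection in at least 2 of 3 clones, 11809 with the median over probes, and 12141 to 12252 with 1 diploid clone left out. The count of bright genes was 3145, against 8187, with scaling to probes detected on all arrays, since the line of 0 then lies higher, and the median difference between diploid and other clones was 0.09 under that scaling, against -0.01. With the median over probes, 16 of the 25 brightest genes remained among the 25, and with normexp background correction 21. The counts of genes past 4-fold in clones 1, 2 and 3 were 11, 91 and 116 with normexp, against 39, 199 and 261, and the cause was not tested. Normexp ran on median pixel signals. Relative medians of 77 lists moved by more than their spread between clones in 65 lists with normexp and in 37 with the median over probes, and 0 and 1 of them changed side of all genes; leaving out a clone changed the side of up to 2.

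The count of features called between diploid and other clones, 71, became 294 with scaling to probes detected on all arrays (277 higher and 17 lower), 43 with normexp, 18 without the filter on dim probes and 8 with slide as a block. Leaving out a clone gave 8 to 631: 8, 20 and 31 without diploid clones 1, 2 and 3, 631, 19 and 31 without triploid clones and 38, 44 and 55 without tetraploid clones. It was 69 with quantile normalization, 54 with the authors' table and, added after seeing the data, 55 with the percentile taken over probes. With the replicate block the count was 14; clones with the same number correlated at -0.132 to 0.0927 in their deviations from the group means, so the numbers do not pair the samples. None of the 12 genes named without overlap reversed under the 17 alternatives. The difference in the share of spots well above background lay between -0.0112 and 1.21 with a diploid clone left out. The brightest 1621 genes with a promoter had 59.3% of promoters with 20 or more CG pairs, against 58.5%. Probes near background limit what can be said of dim and dark genes.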
